A study of Homo sapiens with 4 samples.

Results

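Chemokines are small secreted proteins that draw leukocytes along a concentration gradient by binding receptors coupled to G proteins. The ligands examined here were the genes CXCL1, CXCL2, CXCL3, CXCL5, CXCL6, CXCL8, CXCL10, CXCL11, CCL2 and CCL20. They were found by their symbol in the platform annotation, which gave 9 of the 42152 rows measured on each array. Those rows covered 8 of the 10 genes, CCL20 having 2 rows, and CXCL5 and CXCL6 had no row and were not analysed here. The samples were CAL-27 cells, an established line from a human tongue squamous cell carcinoma, in a cisplatin-resistant and a parental form. Cisplatin, a platinum drug, forms crosslinks in DNA, and the resistant cells had been raised in concentrations increasing from 1e-07 M to 1e-05 M. Both groups had the same serum-containing medium and held 2 arrays each, described as biological replicates. Whether the resistant cells came from 1 clone, and how long before RNA extraction they last met the drug, is not given in the sources used here.

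The family falls into branches with different receptors. CXCL8, or interleukin 8, and its relatives CXCL1, CXCL2, CXCL3, CXCL5 and CXCL6 carry a glutamate-leucine-arginine motif and attract neutrophils through CXCR1 and CXCR2. CXCL10 and CXCL11 lack that motif, are classic targets of interferon, and attract activated T cells through CXCR3. CCL2 acts on monocytes through CCR2, and CCL20 acts through CCR6 on dendritic cells and T-helper cells. In squamous epithelium many of these genes respond to TNF and interleukin 1 through the transcription factor NF-kB, which binds so-called kappaB sites in their promoters.

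The promoters of 9 of the 10 genes were in the RefSeq sequence table of build GRCh38.p14, and CCL2 was not. They are shown because 1 short element recurs in nearly all of them. The letters GGAATTTCC, a kappaB core known from the CXCL8 promoter and chosen for that reason, were searched on both strands from 250 bases before to 50 bases after the start. They occurred in 8 of the 9 promoters, those of CXCL5 and CXCL6 included, and in 0.461% of all 35116 promoter windows of this length. The match in CXCL8 was fixed by the choice of letters. Promoters of close relatives resemble each other, as given below, so the 8 matches are not independent of each other. A second spelling of the kappaB site, GGGNNTTTC, where N is any base, can overlap the first and occurred in 6 of the 9 and in 4.78% of all windows. The AP-1 site TGANTCA was in the windows of CXCL8 and CXCL11 (7.71% of all windows). The core of the interferon response element, GAAANNGAA, was in those of CXCL2, CXCL3 and CXCL10 (8.11%). In the following stretches, written 5′ to 3′ on the strand of the gene, capitals mark every match to these motifs on either strand.
CXCL8, chr4:73740429-73740568, plus strand: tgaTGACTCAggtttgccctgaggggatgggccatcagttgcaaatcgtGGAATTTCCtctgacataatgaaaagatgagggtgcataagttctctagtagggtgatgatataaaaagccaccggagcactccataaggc
CXCL1, chr4:73869273-73869392, plus strand: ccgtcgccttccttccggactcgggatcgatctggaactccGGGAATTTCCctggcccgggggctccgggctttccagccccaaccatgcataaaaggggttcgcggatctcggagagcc
CXCL2, chr4:74099196-74099315, minus strand: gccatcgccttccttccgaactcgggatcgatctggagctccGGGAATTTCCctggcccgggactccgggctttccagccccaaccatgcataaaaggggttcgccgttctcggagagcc
CXCL3, chr4:74038690-74038809, minus strand: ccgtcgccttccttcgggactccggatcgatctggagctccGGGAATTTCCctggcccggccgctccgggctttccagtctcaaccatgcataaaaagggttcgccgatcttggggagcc
CXCL10, chr4:76023647-76023727, minus strand: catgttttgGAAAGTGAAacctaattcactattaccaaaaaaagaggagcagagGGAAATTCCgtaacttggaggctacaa
CXCL11, chr4:76036071-76036190, minus strand: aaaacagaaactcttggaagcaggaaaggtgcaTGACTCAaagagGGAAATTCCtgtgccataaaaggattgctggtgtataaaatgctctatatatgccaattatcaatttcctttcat
CCL20, chr2:227813722-227813841, plus strand: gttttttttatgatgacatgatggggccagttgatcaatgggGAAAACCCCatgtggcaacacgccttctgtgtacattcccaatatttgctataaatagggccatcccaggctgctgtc

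All stretches but that of CXCL10 end on the last base before the transcription start. The core lay at -78 to -70 in CXCL1 and CXCL3, at -77 to -69 in CXCL2, and at -91 to -83 in CXCL8, counting backwards from the start. In CXCL10 and CXCL11 the core was on the opposite strand, at -176 to -168 and at -75 to -67. CCL20 had the second spelling alone, on the opposite strand. The matches to the interferon element in CXCL2 and CXCL3 lay further upstream than the stretches shown. The 250 bases before the start were 81.4% identical between CXCL1 and CXCL3, 73.3% between CXCL2 and CXCL3, and 68.0% between CXCL1 and CXCL2, gaps counted as differences. The same stretch was 85.3% identical between CXCL5 and CXCL6, and that of CXCL8 was 42.8% identical to that of CXCL1. A match is a string of letters and no evidence that a factor bound there in these cells.

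All 4 arrays gave a normalized fluorescence intensity for each row, with medians between 148.7 and 149.9 in the resistant and between 141.2 and 143.0 in the parental arrays. Across all rows the log2 intensities correlated at 0.946 between the resistant and at 0.921 between the parental replicates, and between 0.890 and 0.906 across groups. Levels of different genes come from different probes, so a brighter row does not show a more abundant transcript. No detection call accompanied the values, so the dimmest have no stated bound. With 4 arrays, precision is limited by their number.

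The comparison asked how gene expression in the resistant cells differs from that in the parental cells. In the resistant arrays 7 of the 8 measured ligand genes rose, namely CXCL1, CXCL2, CXCL3, CXCL8, CXCL10, CCL2 and CCL20, by between 2.55-fold and 16.1-fold. CXCL11 had a difference of similar size that missed the threshold. The median log2 difference of the 8 genes was 2.02, against -0.03 over all 15073 named genes. The words rose and fell are kept for genes whose adjusted p was under 0.05 in limma's moderated test over all named genes. By this rule 3.26% of genes rose and 2.83% fell. Both resistant arrays lay above both parental arrays in 8 of 8 ligand genes, which was so for 27.9% of all genes. The ligands were put together with earlier results of these data known, so these counts describe them and are not independent evidence. With a constant prior variance the calls hold for the test over genes only. In limma's test over all 42152 rows at once 0 were called (the lowest adjusted p was 0.0606). At an unadjusted p under 0.05 that test had 4350 rows higher and 3546 lower. With a constant prior variance, 0 of the 8 were called when any 1 of the resistant or parental arrays was left out. With a prior variance that follows intensity, called the intensity prior below, 7 of the 8 genes were called with all arrays and after each omission, against 9.93% of all genes called higher with all arrays. Those 7 shared 6 with the main count, CXCL11 taking the place of CXCL3. In the test over all rows the intensity prior called every ligand row but that of CXCL3 (limma, adjusted p = 0.21). In a bulk culture, more cells making a transcript and more transcript per cell cannot be told apart.

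**Figure D1:**
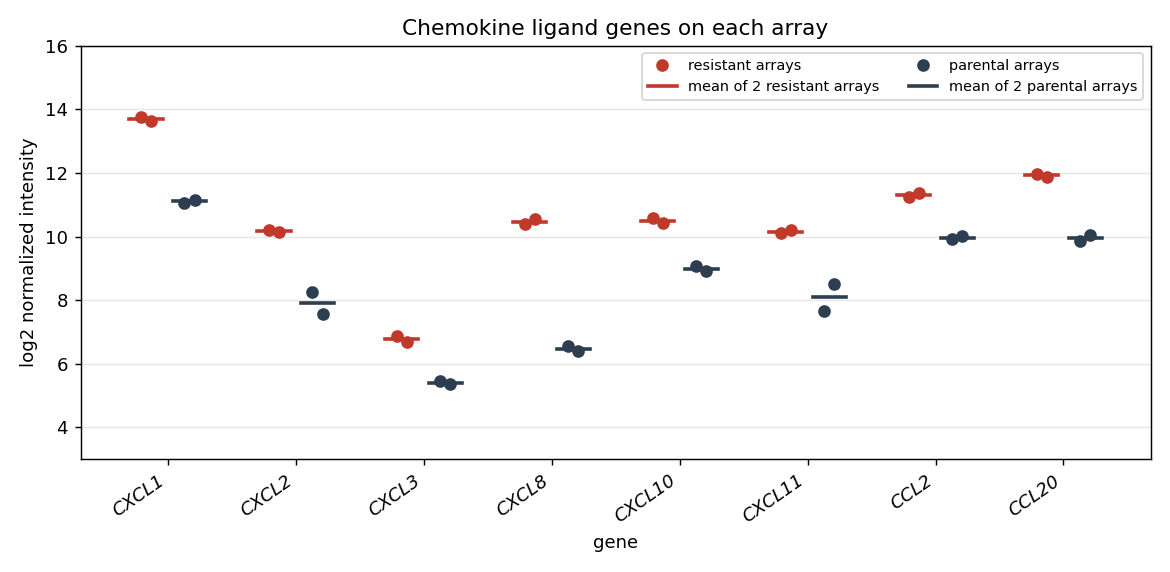
Log2 normalized intensity (vertical axis) of the 8 measured chemokine ligand genes, with points for single arrays and bars for the mean of 2 arrays, resistant in red and parental in dark blue. For each gene both resistant points lie above both parental points, with the widest gap for CXCL8 (3.84) and the narrowest for CXCL3 (1.23).

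Among the neutrophil-attracting ligands CXCL8 had the largest difference. Its normalized intensity was 1346 and 1512 in the resistant arrays, against 94.1 and 83.9 in the parental arrays. On the log2 scale these were 10.39 and 10.56 in resistant cells and 6.56 and 6.39 in parental cells. Both parental values were below their array's median, both resistant values were far above it, and the groups were separated by 3.84. The difference of 4.01 ± 0.19 (moderated SE, n = 2 arrays per group) is 16.1-fold and passed limma's test over genes (adjusted p = 0.0165). Counted from the largest, it was number 28 among the log2 differences of the 15073 genes. Its 95% interval, 3.46 to 4.55, lay above the upper bound of every other ligand gene measured, the next being 3.12 for CXCL2. A test between genes was not run.

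CXCL1, first described as a growth factor of melanoma cells, had intensities of 13743 and 12868 in the resistant arrays and of 2156 and 2257 in the parental arrays. Replicates differed by only 0.10 in resistant and 0.07 in parental cells on the log2 scale, and each resistant array exceeded each parental array by 2.51 to 2.67. CXCL1 rose by 2.59 ± 0.18, or 6.03-fold (limma, adjusted p = 0.0171), and was number 150 in order of rise.

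CXCL2, whose product also binds CXCR2, had intensities of 1190 and 1136 in the resistant arrays and of 305.6 and 189.4 in the parental arrays. The parental replicates lay 0.69 apart on the log2 scale, the resistant ones 0.07, and the groups did not overlap. CXCL2 rose by 2.27 ± 0.30, or 4.83-fold (limma, adjusted p = 0.041).

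CXCL3, a close relative of CXCL1 and CXCL2, had intensities of 118.2 and 103.3 in the resistant and of 43.9 and 40.8 in the parental arrays. The resistant values lay below the median of their arrays, and the parental values lay below the lower quartile, which was 51.3 and 50.3. CXCL3 rose by 1.38 ± 0.19 (limma, adjusted p = 0.0438), nominally 2.61-fold. This call was lost with the intensity prior (adjusted p = 0.0946), and adding 50 to every intensity reduced the log2 difference to 0.80. The 3 genes CXCL1, CXCL2 and CXCL3 have similar sequences, and their probes may share signal, so the split between these genes is uncertain.

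CXCL10 and CXCL11, the interferon-responsive pair, were also higher in each resistant array. CXCL10 had intensities of 1544 and 1373 in the resistant arrays and of 540.5 and 481.3 in the parental arrays. Its replicates differed by 0.17 on the log2 scale within either group, and it rose by 1.51 ± 0.20, or 2.85-fold (limma, adjusted p = 0.0397).

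CXCL11 had intensities of 1098 and 1183 in the resistant arrays and of 204.2 and 367.0 in the parental arrays. The parental replicates were 0.85 apart on the log2 scale, the widest replicate difference among the 8 genes, and the groups were separated by 1.58. Its difference was 2.06 ± 0.35, or 4.16-fold, with a 95% interval of 1.07 to 3.04, and did not pass over all genes (limma, adjusted p = 0.0586). Without parental replicate 1 it was 1.64 and without parental replicate 2 it was 2.48. The intensity prior gave it an adjusted p of 0.00176. CXCL9, the remaining ligand of CXCR3, was near the bottom of the scale in both groups, with log2 values of 5.30 and 4.08 in resistant and 5.26 and 5.83 in parental cells (-0.85 ± 0.51, limma, adjusted p = 0.365).

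The CC ligands CCL20 and CCL2 both rose. CCL20, a chemokine of inflamed mucosa, was measured by 2 rows for 2 RefSeq transcripts. The brighter row read 3978 and 3795 in the resistant arrays and 930.7 and 1052 in the parental arrays. The other row read 1761 and 1583 in the resistant arrays and 368.1 and 410.7 in the parental arrays. Neither row overlapped between the groups, and their log2 differences, 1.97 and 2.10, were alike within their standard errors of 0.24 and 0.25 in the test over rows. By gene, CCL20 rose by 1.97 ± 0.19, or 3.93-fold (limma, adjusted p = 0.0262). CCL2, a monocyte attractant, had intensities of 2455 and 2640 in the resistant arrays and of 961.4 and 1034 in the parental arrays. Its replicates were 0.10 apart in both groups, and it rose by 1.35 ± 0.18, or 2.55-fold (limma, adjusted p = 0.0421). It was number 887 in order of rise and the smallest change of the 8.

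Standard errors near 0.18 recur because limma draws the spread of each gene towards one shared by all genes. With 2 residual degrees of freedom per gene of a total of 3.92, both the gene's own spread and the shared one carry weight. The SDs of CXCL1, for example, were 0.07 in resistant and 0.05 in parental cells. An exact permutation test of 2 arrays against 2 cannot give a two-sided p below 0.333.

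None of the other chemokine ligands measured rose, which is near the share of all genes that rose. Of 24 further ligand genes with a row, of 36 listed, 0 rose, 3 fell and 21 did not pass in limma's test over genes. These shares were 0% and 12.5%, against 3.26% of all genes that rose and 2.83% that fell. The median log2 difference of the 24 was 0.15. Of these 24 genes, 4 had an unadjusted p under 0.05, against 4250 of all 15073 genes. The intensity prior called 0 higher and 4 lower, or 0% and 16.7%, against 9.93% and 11.5% of all genes. CX3CL1, or fractalkine, which is anchored in the membrane and can be shed, read 6.80 and 6.76 in resistant cells against 10.38 and 9.82 in parental cells. It fell by 3.31 ± 0.27 (adjusted p = 0.0207). CXCL14, a chemokine of normal squamous epithelium, read 5.33 and 4.84 in resistant and 7.40 and 7.05 in parental cells and fell by 2.14 ± 0.28 (adjusted p = 0.0395). CCL22, a ligand of CCR4, read 6.07 and 6.28 in resistant and 7.82 and 7.70 in parental cells and fell by 1.59 ± 0.20 (adjusted p = 0.0367). For these last 2 genes the resistant arrays were dim, so that the size of the fall is nominal. CXCL16, the ligand of CXCR6 and a bright row in both groups, differed by 0.25 ± 0.19 (adjusted p = 0.451).

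**Figure D2:**
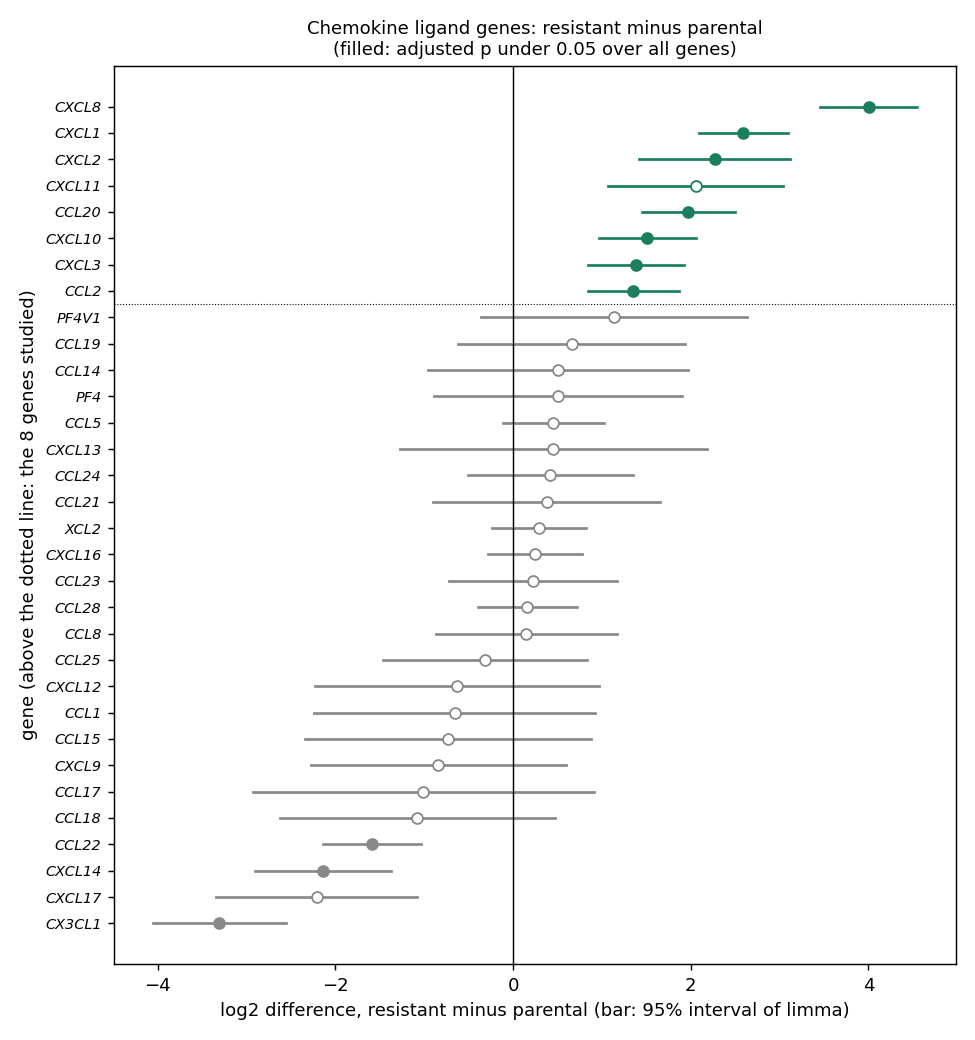
Log2 difference, resistant minus parental, of 32 measured chemokine ligand genes (horizontal axis), with bars for limma's 95% interval, filled points for genes with an adjusted p under 0.05, and the 8 genes of interest in green above the dotted line. The green points run from 1.35 for CCL2 to 4.01 for CXCL8, while the grey points run from -3.31 for CX3CL1 to 1.14 for PF4V1.

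The promoters of the other ligands were searched in the same way. Of 24 other ligand genes with a window in the table, some of which had no row, 0 held the core GGAATTTCC, 3 the second kappaB spelling, 5 the AP-1 site and 4 the interferon element. Beyond the genes of interest, 61 genes with the core in their window had a row. Of these 1 rose, or 1.64% against 3.26% of all genes, and 3 fell, with a median log2 difference of -0.04. The gene that rose was ICAM1, an adhesion molecule for leukocytes, with 14.41 and 14.50 in resistant and 12.04 and 12.24 in parental cells (2.31 ± 0.19, adjusted p = 0.0216). Its naming, and the count by motif, were added after the values were seen.

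Most of the ligand genes lie together. On chromosome 4, the RefSeq gene table places CXCL8, CXCL6, PF4V1, CXCL1, PF4, PPBP, CXCL5, CXCL3 and CXCL2 in one run, and CXCL9, ART3, CXCL10 and CXCL11 in a second. Of the 6 measured ligand genes there, 5 rose, 0 fell and CXCL11 did not pass. Of the 22 other measured protein-coding genes in and around these runs, 2 rose, 1 fell and 19 did not pass (median difference 0.32). Over all genes 3.26% rose and 2.83% fell. The genes next to the ligands were variable and mostly dim. PF4V1, a platelet factor relative between CXCL6 and CXCL1, read 4.51 and 5.90 in resistant and 4.19 and 3.94 in parental cells (1.14 ± 0.53, adjusted p = 0.265). PF4, between CXCL1 and PPBP, read 5.13 and 6.41 in resistant and 5.13 and 5.40 in parental cells (0.51 ± 0.50, adjusted p = 0.566), and its difference turned to -0.13 without resistant replicate 2. RASSF6, on the outer side of CXCL8, differed by 0.97 ± 0.30 (adjusted p = 0.141), and EPGN, the nearest measured gene beyond CXCL2, by -1.04 ± 0.68 (adjusted p = 0.40). ART3 differed by 0.80 ± 0.82 (adjusted p = 0.581) and by -0.22 without resistant replicate 1, and NUP54, beyond CXCL11, by -0.28 ± 0.26 (adjusted p = 0.548). AREG, a ligand of the epidermal growth factor receptor, fell by 1.73 ± 0.21 (adjusted p = 0.0354). SCARB2, a lysosomal membrane protein, rose by 1.52 ± 0.20 (adjusted p = 0.04), as did ODAPH, by a nominal 2.79 ± 0.21 (adjusted p = 0.0188) over dim parental values of 4.37 and 4.25. ODAPH was added to the chromosome order after its values were seen.

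**Figure D3:**
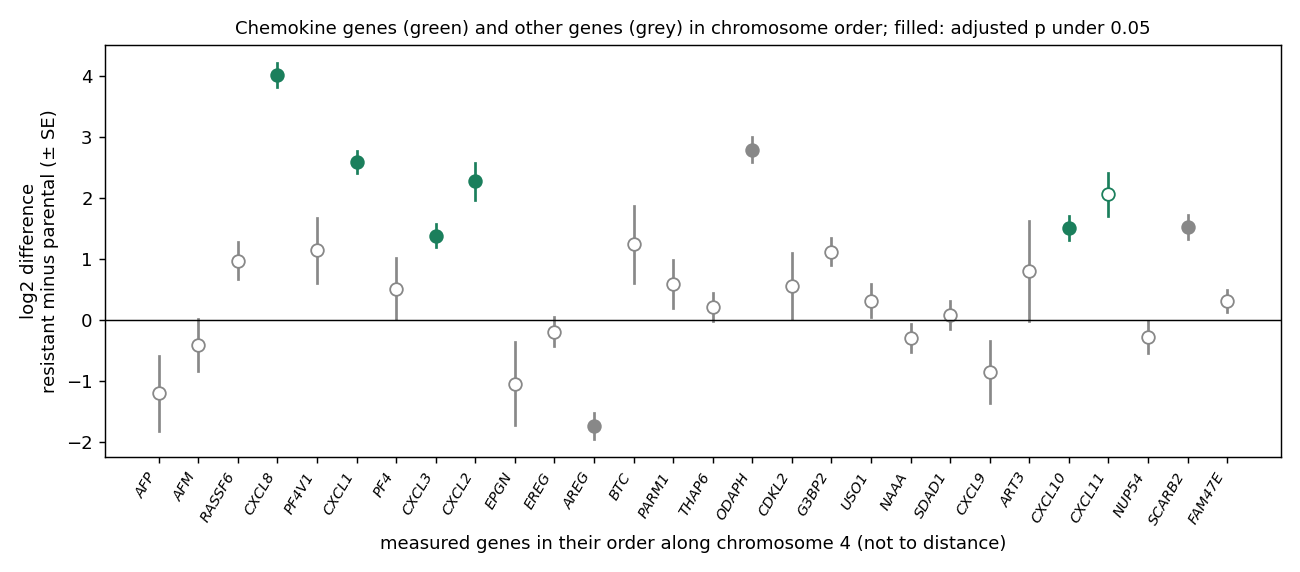
Log2 difference, resistant minus parental, ± SE (vertical axis) of 28 measured genes in their order along chromosome 4, equally spaced, with the ligand genes in green, other genes in grey and filled points for an adjusted p under 0.05. CXCL8 (4.01), CXCL1 (2.59), CXCL3 (1.38) and CXCL2 (2.27) stand above PF4V1 and PF4, which lie between them, and AREG (-1.73) is the single gene that fell.

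The measured receptors of the ligands that rose had low intensities and did not pass. Of 20 measured chemokine receptors, of 23 listed, 0 rose, 1 fell and 19 did not pass in limma's test over genes, with a median difference of 0.04. The shares of 0% and 5% are near those of all genes, 3.26% and 2.83%. Of the 20 receptors 3 had an unadjusted p under 0.05, against 4250 of all 15073 genes. CXCR1 read 4.66 and 5.48 in resistant against 6.31 and 4.93 in parental cells, and CXCR2 read 6.32 and 7.08 in resistant against 7.16 and 5.44 in parental cells. CXCR3 differed by 0.15 ± 0.34 (adjusted p = 0.816) and CCR2 by -0.44 ± 0.44 (adjusted p = 0.567), with overlapping groups in both. CCR6 had no row. ACKR3, a scavenging receptor that binds CXCL11 and CXCL12, read 5.06 and 4.13 in resistant and 8.02 and 7.98 in parental cells. It fell by 3.40 ± 0.38 (adjusted p = 0.0316). The resistant arrays were dim and the size is nominal, being -2.03 with 50 added to every intensity. Its usual partner CXCL12 had overlapping groups (-0.63 ± 0.57, adjusted p = 0.535). CXCR4, the signalling receptor of CXCL12, differed by 1.76 ± 0.42 (adjusted p = 0.0962).

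Among cytokines that induce these ligands TNF, IL1A and IL1B rose and IL17C and IL17F did not pass, and none of the NF-kB subunit genes NFKB1, NFKB2, RELA, RELB and REL passed. Of 32 measured genes in the list of inducing cytokines and NF-kB factors, of 41 listed, 5 rose, 2 fell and 25 did not pass in limma's test over genes. The shares of 15.6% and 6.25% compare with 3.26% and 2.83% of all genes, and the median difference was 0.09. With the intensity prior 9 were higher and 6 lower, or 28.1% and 18.8% of the list, against 9.93% and 11.5% of all genes. TNF read 10.28 and 10.32 in resistant cells against 6.60 and 6.71 in parental cells and rose by 3.64 ± 0.18 (adjusted p = 0.0165). IL1A, an interleukin 1 of epithelial cells, read 12.19 and 12.31 in resistant against 10.61 and 10.74 in parental cells and rose by 1.57 ± 0.19 (adjusted p = 0.035). Its relative IL1B rose by 1.22 ± 0.18 (adjusted p = 0.0479). Genes of AP-1 subunits went both ways, as JUN rose by 2.41 ± 0.18 (adjusted p = 0.0195) and FOS fell by 2.46 ± 0.31 (adjusted p = 0.0387). IL1RAP, a subunit of the interleukin 1 receptor, fell by 1.72 ± 0.19 (adjusted p = 0.0317). NFKB1 differed by 0.20 ± 0.19 (adjusted p = 0.544) and RELA by -0.03 ± 0.18 (adjusted p = 0.937). NFKB2, another subunit gene, differed by 0.62 ± 0.18 (adjusted p = 0.124), with both resistant arrays above both parental arrays, and was called with the intensity prior (adjusted p = 0.0101). NFKBIZ, whose product modulates NF-kB in the nucleus, had a difference of 1.23 ± 0.24 (adjusted p = 0.0714), which the intensity prior called (adjusted p = 0.0131). Also called with that prior alone were MYD88 (1.25) and FOSL1 (0.78), which were higher. TRAF3IP2 (-1.10), NFKBIB (-0.60), BCL3 (-0.56) and TRAF6 (-0.54), called in the same way, were lower. TNFAIP3, a feedback inhibitor of NF-kB, rose by 1.45 ± 0.19 (adjusted p = 0.041). These arrays measure transcripts, so the activity of NF-kB was not measured.

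Of 11 measured factors that stabilise or degrade chemokine mRNA, ZC3H12A, an endonuclease that cuts inflammatory transcripts, rose by 1.29 ± 0.18 (adjusted p = 0.0427) and 10 did not pass. ARID5A, a stabilising factor, differed by 1.13 ± 0.22 (adjusted p = 0.0694). The shares of 9.09% that rose and 0% that fell compare with 3.26% and 2.83% of all genes. With the intensity prior 2 of this list were higher, ZC3H12A and HNRNPD (1.05 ± 0.21, adjusted p = 0.0163). ZFP36 was lower (-0.82 ± 0.22, adjusted p = 0.00794 with that prior). These shares were 18.2% and 9.09%, against 9.93% and 11.5% of all genes.

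The interferon route, which drives CXCL10 and CXCL11 in many cells, showed 0 of 25 measured genes higher in limma's test over genes, with 1 lower, 24 not passing and 5 at an unadjusted p under 0.05. Over all genes 3.26% were higher and 2.83% lower in that test, and 4250 of 15073 had an unadjusted p under 0.05. With the intensity prior 3 of the 25 were higher and 2 lower, or 12% and 8% of the list, against 9.93% and 11.5% of all genes. IFNGR1, a chain of the interferon gamma receptor, read 9.58 and 9.56 in resistant against 10.73 and 10.74 in parental cells and fell by 1.17 ± 0.18 (adjusted p = 0.049). SOCS3, a feedback inhibitor of cytokine signalling, differed by 1.10 ± 0.18 (adjusted p = 0.0558). IRF1, a transcription factor of this route, differed by -0.18 ± 0.26 (adjusted p = 0.696) with overlapping groups.

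**Figure D4:**
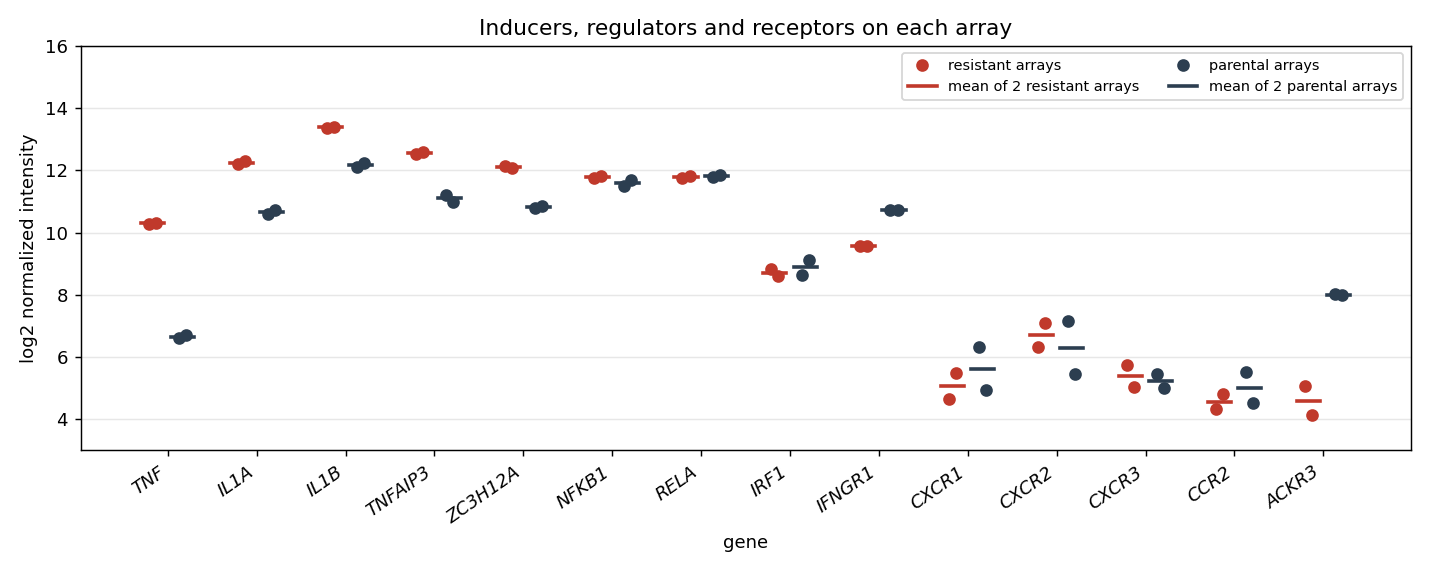
Log2 normalized intensity (vertical axis) of 14 inducers, regulators and receptors, with points for single arrays and bars for means of 2 arrays, resistant in red and parental in dark blue. TNF (10.28 and 10.32 in resistant, 6.60 and 6.71 in parental cells) is separated by the widest gap, the points of NFKB1 and RELA lie close together, and the points of CXCR1, CXCR2, CXCR3 and CCR2 overlap between the groups.

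Among proteases that trim chemokines 1 gene rose and 1 fell, or 12.5% each of those measured, against 3.26% and 2.83% of all genes. Of 8 measured, of 13 listed, MMP7, or matrilysin, rose by 4.01 ± 0.19 and the collagenase gene MMP1 fell by 5.78 ± 0.19 (adjusted p = 0.0165 for both), while 6 did not pass. MMP1 read 4.58 and 4.70 in resistant against 10.36 and 10.48 in parental cells, so its fall is nominal. DPP4, which cuts CXCL10 and CXCL11, was among the 6, with -0.45 ± 0.18 (adjusted p = 0.217). So was MMP14, with 1.10 ± 0.19 (limma, adjusted p = 0.0588), which the intensity prior called (adjusted p = 0.000693). That prior called 2 of the list higher and 1 lower, or 25% and 12.5%, against 9.93% and 11.5% of all genes.

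Several of these ligands are also made by leukocytes, fibroblasts and endothelium, so markers of those cells are given beside the rise. Of 18 measured leukocyte markers 0 rose, 1 fell and 17 did not pass in limma's test. The shares of 0% and 5.56% are near those of all genes, 3.26% and 2.83%. Of the 18 markers 3 had an unadjusted p under 0.05, against 4250 of all 15073 genes. Their summed intensity was 5191 to 5854 in resistant and 5373 to 5968 in parental arrays. The pan-leukocyte gene PTPRC read 6.03 and 4.35 in resistant and 5.28 and 4.66 in parental cells. S100A12, which squamous cells can also express, was the marker that fell (-2.93 ± 0.33, adjusted p = 0.0316), and LCP1 differed by 1.27 ± 0.22 (adjusted p = 0.058). The macrophage marker CD68 differed by -0.23 ± 0.18 (adjusted p = 0.479). Of 10 fibroblast markers COL1A1, a collagen gene, rose by 3.23 ± 0.26 (adjusted p = 0.0205) and 9 did not pass, with a summed intensity of 4001 to 5299 in resistant and 6340 to 6758 in parental arrays. The shares of 10% that rose and 0% that fell compare with 3.26% and 2.83% of all genes. FBLN1, an extracellular matrix gene, differed by -1.53 ± 0.26 (adjusted p = 0.0583). Of 7 endothelial markers CDH5, the vascular cadherin, rose by a nominal 5.02 ± 0.34 (adjusted p = 0.0171) over dim parental values of 3.84 and 4.63, or by 3.25 with 50 added to every intensity. The other 6 did not pass, ENG with 1.54 ± 0.27 (adjusted p = 0.0618). The shares of 14.3% that rose and 0% that fell compare with 3.26% and 2.83% of all genes. Both resistant arrays lay above both parental arrays in 4 of the 7, against 4211 of all 15073 genes. They lay below in 2, against 4675, namely ERG (-1.25 ± 0.23, adjusted p = 0.0665) and KDR (-0.61 ± 0.25, adjusted p = 0.215). The summed intensity of the endothelial list was 1396 to 1573 in resistant and 463 to 562 in parental arrays. CDH5 and ENG alone had a mean log2 above 8, in resistant cells only, so the sum mostly follows these 2 genes. The part of this list in the rise of the ligands was not tested. Of 10 squamous markers, which define the labelled cell type, 5 fell, 0 rose and 5 did not pass. The shares of 50% that fell and 0% that rose compare with 2.83% and 3.26% of all genes. The summed intensity of these markers was 106079 to 110875 in resistant and 242852 to 244288 in parental arrays. KRT5 remained bright with 15.16 and 15.37 in resistant and 15.70 and 15.71 in parental cells, whereas KRT14 fell by 6.28 ± 0.19 and PKP1 by 6.52 ± 0.22 (adjusted p = 0.0165 for both), the size for PKP1 being nominal because its resistant values were dim. Of the 5 that did not pass, CDH1 was higher by 0.76 ± 0.18 (limma, adjusted p = 0.0948) and EPCAM by 0.91 ± 0.20 (adjusted p = 0.082). The intensity prior called both higher and 7 of the list lower, or 20% and 70%, against 9.93% and 11.5% of all genes. The part of these changes in the rise of the ligands was not tested either.

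**Figure D5:**
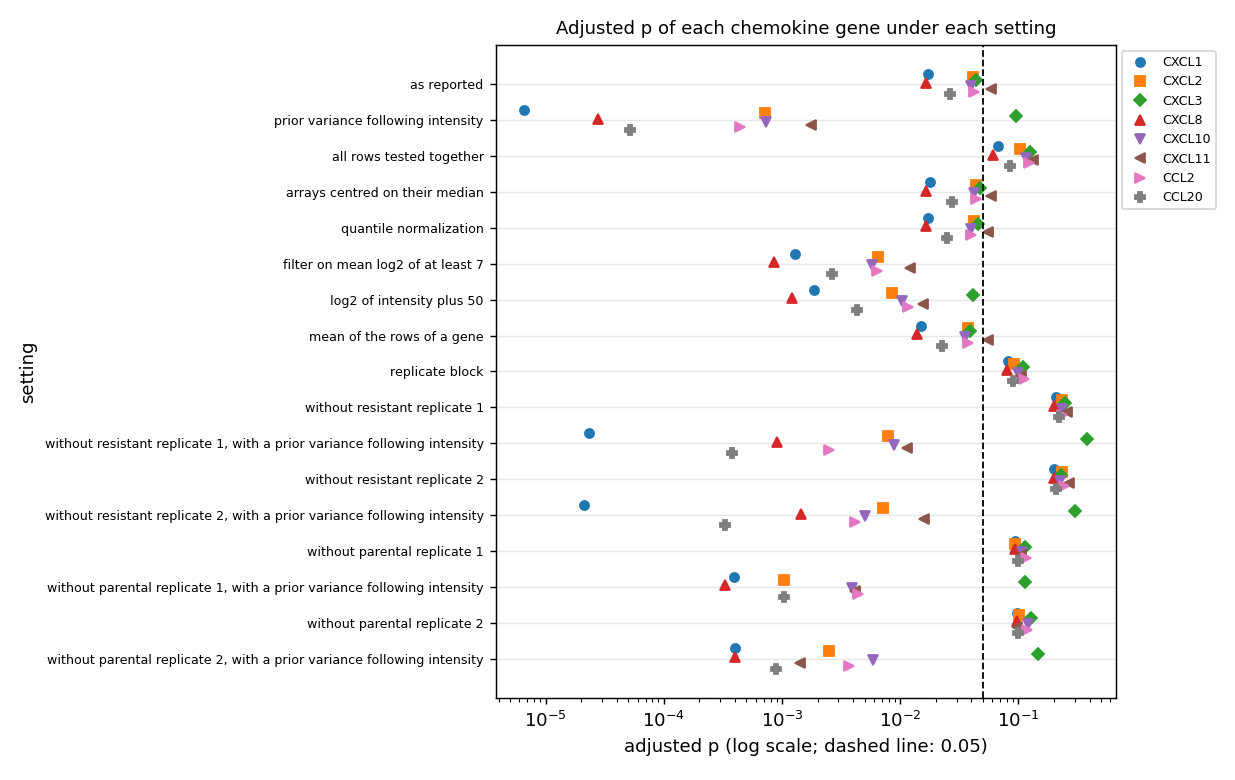
Adjusted p of each of the 8 ligand genes (horizontal axis, log scale, dashed line at 0.05) under each setting of the test (vertical axis). All 8 genes lie right of the line when all rows are tested together, with the replicate block and with 1 array left out under a constant prior, and CXCL3 is the single gene right of it with the intensity prior.

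The sizes of the differences varied less for some ligand genes than for others. Over the 16 alternatives shown in the plot of adjusted p by setting, CXCL8 differed by between 3.41 and 4.09, CXCL1 by between 2.52 and 2.64, CXCL10 by between 1.43 and 1.60, CCL2 by between 1.28 and 1.40 and CCL20 by between 1.88 and 2.06. CXCL2 ranged from 1.93 to 2.62 and CXCL11 from 1.64 to 2.48. CXCL3 ranged from 0.80 to 1.48 over the 15 alternatives that tested it and lost its call in 11 of them. Under every setting run, all ligand genes tested had a positive difference. Many of the settings could not turn the sign, since they kept the same difference or left out 1 of 4 arrays whose groups did not overlap.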

How the data were processed

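The authors deposited normalized intensity values of 4 one-colour NimbleGen arrays, linear rather than log2 values that ran from 8.79 to 65071. RMA is named in the submitters' processing notes, and its version, the row filter and the genome build are not given in the sources used here. The cDNA was double-stranded, primed with oligo-dT and Cy3-labelled, per the labels' protocols, so strands cannot be told apart.

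Here intensities were taken to log2 without further normalization. Of 42152 rows, 17899 had a symbol in the platform annotation and 674 more through RefSeq accessions (GRCh38 gene table), and 23579 had none. The row with the highest mean stood for each of 15073 genes. The groups were compared in R 4.3.3 with limma 3.58.1 (lmFit and eBayes, prior variance constant, without covariates), p-values were adjusted over all genes by Benjamini-Hochberg, and the threshold was 0.05. The fit was tested on simulated data. Promoter windows came from RefSeq, and pairs were aligned globally with Biopython 1.88.

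The ligand genes, gene lists and motifs were chosen with earlier results of these data known. The second kappaB spelling and the interferon element were each shortened by their last base after matches to the longer forms had been seen, so they match every window that the longer forms match and can match others. Named genes were all ligands in every array, up to 4 genes per list past the threshold (otherwise the 2 with the smallest p), the nearest measured neighbours on chromosome 4, and per marker list the 2 with the smallest p and the highest. CXCL9, CXCL12, CXCL16, CXCR1, CXCR2, CXCR3, CCR2, IL1B, FOS, TNFAIP3, NFKB1, NFKB2, NFKBIZ, RELA, RELB, REL, IL17C, IL17F, MYD88, FOSL1, TRAF3IP2, NFKBIB, BCL3, TRAF6, IRF1, DPP4, PTPRC, CDH1, EPCAM, ICAM1 and ODAPH do not come from this rule. The same holds for HNRNPD, ZFP36, MMP14, ERG and KDR. The values of all these genes were known when they were picked. Some genes are not reported here. The labels do not say whether replicates were separate cultures, beyond calling them biological replicates. The series numbers replicates 1 and 2 in both groups; deviations of same-numbered arrays correlated at 0.142 over genes, and with 2 pairs the numbers were not taken as a pairing.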

Additional observations from a re-analysis of the deposited data

How the results depend on the processing

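The count of ligand genes called depended on how the spread was estimated. Their direction did not change, but many of the settings could not have changed it. The intensity prior, the test over all rows, the intensity filter and the replicate block keep the same difference. Leaving out 1 array could not turn a sign, as both resistant arrays lay above both parental arrays in all 8 genes. The 7 called genes became 0 when all rows were tested together and 0 with the replicate block, a fit that leaves 1 residual degree of freedom. Leaving out 1 array gave 0 to 7, being 0 with a constant prior variance and 7 with the intensity prior, a setting added after the data were seen. Adding 50 to the intensities called all 8, and neither median centring, quantile normalization nor averaging the rows of a gene changed the count. Over all genes the 919 calls became 3234 with the intensity prior, 2736 with a filter on a mean log2 of at least 7 (which drops CXCL3), 2112 after adding 50, 0 with all rows tested together and 0 with the replicate block. Without 1 array they were 0 with a constant prior and, with the intensity prior, 1899 and 1970 without resistant replicate 1 or 2 and 2797 and 2404 without parental replicate 1 or 2. Over rows, 0 calls became 3960 with the intensity prior, among them every ligand row but that of CXCL3. Of 127 values of ligand genes under alternatives, 73 kept their side of the threshold, 47 lost the call, 7 gained one and 0 changed sign. Among other named genes, PF4 turned to -0.13 without resistant replicate 2 (1.15 without replicate 1) and ART3 to -0.22 without resistant replicate 1 (1.82 without replicate 2). The cause of these changes was not tested. Searching only the 250 bases before the start gave the same promoters of ligand genes. With 2 arrays per group and no background probes, dim values such as those of CXCL3 are the least certain.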
